A study of Mus musculus with 6 samples.

Results

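The 10 genes described here make, break down or control the polyamines putrescine, spermidine and spermine in a mouse macrophage-like cell line. They were taken by symbol from the deposited table of transcript abundance: Odc1, Amd1, Srm and Sms for synthesis, Azin1 as antizyme inhibitor, Sat1, Smox and Paox for breakdown, and Oaz1 and Oaz2 as antizymes. All 10 are among the 25124 genes of that table, and all 10 passed the filter on low values that left 11202 genes to test. RNA sequencing covered 6 libraries of RAW264.7 cells, 3 of cells given IL-4 at 10 ng/ml (M2) and 3 of cells without IL-4 (M0). Both groups were grown in 25 mM glucose with 10% serum and came from a control line that had received a Cas9 plasmid without a guide RNA, the control to an E4BP4 knockout line. Whether that control line is a pool or 1 clone is not stated. RAW264.7 is an established line and not primary macrophages, and the labels do not say how long IL-4 was given. Titles of the M0 samples, and of no M2 sample, carry a re-analysis note, so any batch it marks cannot be told apart from IL-4. The labels do not call the replicates separate cultures, and p-values therefore reflect only the variation among these samples, which may be technical.

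Polyamines are small cations that bind RNA and DNA and are needed for growth and for translation. Ornithine, which arginase makes from arginine, is decarboxylated to putrescine, and aminopropyl groups from decarboxylated S-adenosylmethionine turn putrescine into spermidine and spermidine into spermine. The way back runs through acetylation and oxidation, or through direct oxidation of spermine. Antizymes close the loop: polyamines promote the ribosomal frameshift by which antizyme is made, antizyme sends ornithine decarboxylase to the proteasome, and antizyme inhibitor, a relative of the decarboxylase without its activity, binds antizyme in its place. Alternatively activated macrophages are known for arginase, and the comparison asks where the transcripts of the steps after arginase stand with IL-4.

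Transcripts for synthesis stood higher in M2 cells and those for breakdown lower. Odc1, Amd1, Srm and Azin1 rose, Sat1, Smox, Paox, Oaz1 and Oaz2 fell, and Sms did not pass. By role, 3 of 4 synthesis enzymes and the antizyme inhibitor rose, and 3 of 3 breakdown enzymes and 2 of 2 antizymes fell. Calls rest on limma with log2(TPM + 1) and an adjusted p under 0.05, where TPM is an abundance scaled for transcript length and depth. By that rule 43.7% of all tested genes were called, 20.1% upward and 23.7% downward, against 9 of the 10 polyamine genes, 4 upward and 5 downward. For the same 9 genes no M2 library overlapped an M0 library, as for 55.9% of all tested genes. Median log2 fold changes, M2 over M0, were 0.72 for the synthesis enzymes, -0.44 for the breakdown enzymes and -0.35 for the antizymes, and -0.03 for all tested genes. The call of Oaz1 was the least stable of the 9 and ended under 9 of 16 alternatives. In bulk RNA a lower level can come from fewer cells with a transcript or from less of it per cell, and these cannot be told apart.

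**Figure D1:**
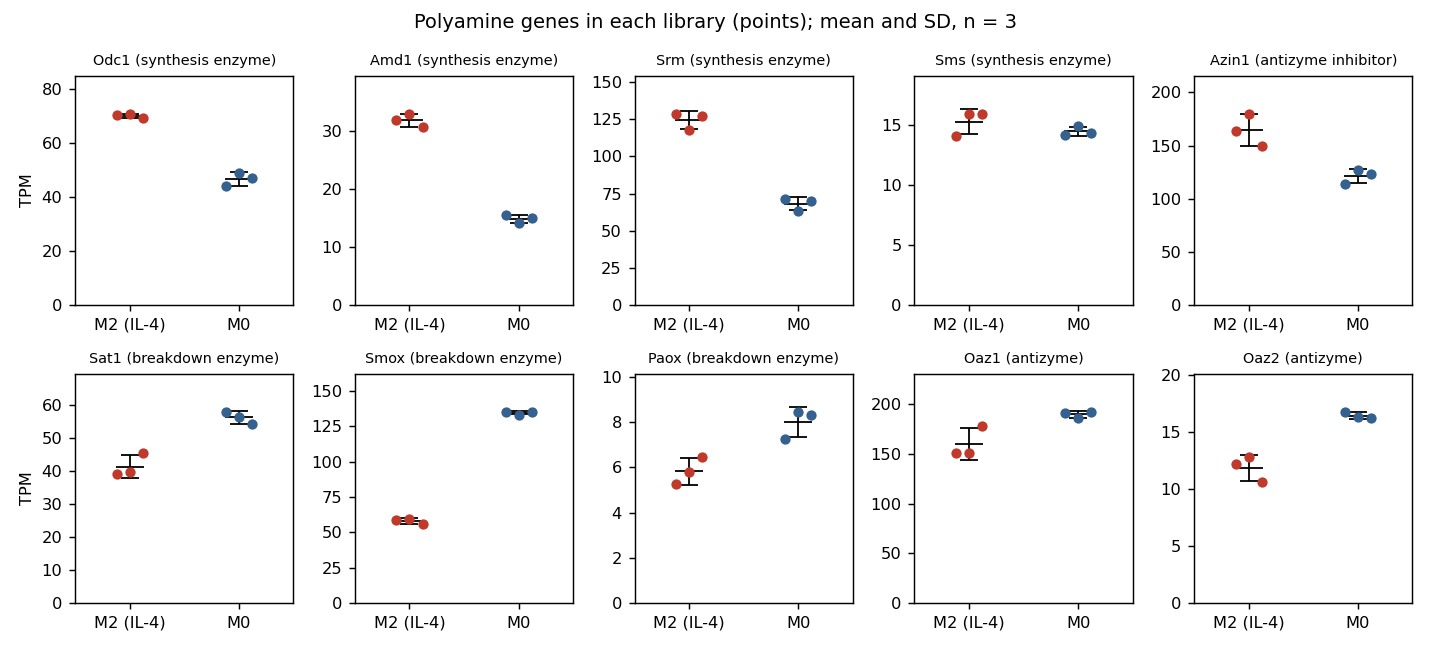
TPM of each polyamine gene (y axes from 0, scaled per gene) in 3 M2 and 3 M0 libraries, with points for libraries and bars for mean and SD. M2 libraries lie above M0 libraries for Odc1, Amd1, Srm and Azin1 and below them for the breakdown enzymes and antizymes, while Sms overlaps.

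Reads over the listed gene models, recovered from the TPM values and model lengths, summed to between 15615639 and 19511192 per library, with loci listed under several models counted more than once. These sums are below the library totals in the file headers. The lowest correlation between libraries of the same group was 0.991 and the highest between groups 0.975, on the log2(TPM + 1) scale. All 10 macrophage markers checked had a mean of at least 1 TPM, and together they summed to 2496 to 2606 TPM in M2 libraries and 3010 to 3237 TPM in M0 libraries. Marker lists of T cells, B cells, fibroblasts, epithelium and endothelium each summed to at most 1.36 TPM in any library. Neutrophil markers summed to 4.12 to 5.85 TPM in M2 libraries and 4.51 to 5.98 TPM in M0 libraries, nearly all of it S100a8.

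Amd1 encodes S-adenosylmethionine decarboxylase, which makes the aminopropyl donor, and had the largest rise of the 10 genes. Mouse has a near-identical copy, Amd2, so the sequences around the starts of both transcripts are shown first. Each is read 5′ to 3′ from RefSeq on GRCm38.p6, the minus strand of chromosome 10, with capitals for the 48 bases that both share and 30 bases before them in lower case.
Amd1, chr10:40302139-40302216: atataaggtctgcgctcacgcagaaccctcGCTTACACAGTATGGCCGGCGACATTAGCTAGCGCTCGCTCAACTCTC
Amd2, chr10:35711844-35711921: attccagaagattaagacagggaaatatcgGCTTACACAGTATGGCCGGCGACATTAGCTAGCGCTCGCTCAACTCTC
The capitals begin at 40302186 for Amd1, where GENCODE starts its transcript, and the bases before them differ between the copies. Over 3204 aligned bases the GENCODE M21 transcripts of Amd1 and Amd2 were identical at 3190, or 99.6%.

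The authors' table lists both genes, but places them on the same locus. Its Amd1 model is NM_009665, chromosome 10, 40287458 to 40302188 on the build mm10, minus strand, and its Amd2 model, NM_007444, spans 40287465 to 40302186. GENCODE has Amd2 elsewhere on chromosome 10, at 35708675 to 35711892. The Amd2 row held 1578, 1585 and 1707 reads in M2 replicates 1, 2 and 3 and 781, 687 and 633 in M0 replicates 1, 2 and 3. The Amd1 row held 1581, 1585 and 1708 reads in the M2 libraries and 781, 687 and 633 in the M0 libraries, so both rows are the same measurement. The sources used here do not say how reads that match both copies were treated, and the share of the second copy in these values was not tested.

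Amd1 had 31.9, 32.9 and 30.7 TPM in M2 replicates 1, 2 and 3, and 15.5, 14.2 and 14.9 TPM in M0 replicates 1, 2 and 3. Every M2 library stood at about the same level, well above each M0 library. Its mean of 31.9 ± 1.11 TPM in M2 cells was 2.14 times that of 14.9 ± 0.671 TPM in M0 cells (SD, n = 3 each). On log2(TPM + 1) the fold change was 1.05 (SE 0.066, adjusted p = 9.29e-06 by limma), the 105th largest of the 5175 tested genes with a positive one.

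Srm, spermidine synthase, adds the aminopropyl group to putrescine. It had 128, 117 and 127 TPM in M2 replicates 1, 2 and 3, and 71.4, 63.2 and 69.8 TPM in M0 replicates 1, 2 and 3. The lowest M2 library stood above the highest M0 library, with replicate 2 the lowest of both groups. The means were 124 ± 5.94 TPM in M2 cells and 68.1 ± 4.35 TPM in M0 cells (SD, n = 3 each), a ratio of 1.82 (log2 fold change 0.86, SE 0.065, adjusted p = 2.42e-05 by limma). Its model is NM_009272, chromosome 4, 148591513 to 148594619, plus strand.

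Odc1 encodes ornithine decarboxylase, the rate-limiting enzyme that makes putrescine. It had 70.1, 70.6 and 69.2 TPM in M2 replicates 1, 2 and 3, and 43.8, 48.8 and 47.1 TPM in M0 replicates 1, 2 and 3. The M2 libraries were nearly equal, with a coefficient of variation of 1.03%, against 5.41% in M0. The means were 69.9 ± 0.718 TPM in M2 cells and 46.6 ± 2.52 TPM in M0 cells (SD, n = 3 each), a log2 fold change of 0.58 (SE 0.058, adjusted p = 1.04e-04 by limma). The model is NM_013614, chromosome 12, 17544873 to 17551502, plus strand.

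Sms, spermine synthase, takes spermidine to spermine and did not change detectably. It had 14.1, 15.9 and 15.9 TPM in M2 replicates 1, 2 and 3, and 14.2, 14.9 and 14.3 TPM in M0 replicates 1, 2 and 3, and the groups overlapped. The log2 fold change was 0.07 with a 95% interval of -0.10 to 0.24 (adjusted p = 0.463 by limma), from 703 to 1027 reads per library. That interval lies below the estimates for Odc1, Amd1 and Srm, although the differences between these genes were not tested. Within a library the ratio of Srm to Sms TPM was 9.13, 7.39 and 7.98 in M2 replicates 1, 2 and 3 and 5.03, 4.23 and 4.88 in M0 replicates 1, 2 and 3.

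Azin1, the antizyme inhibitor, moved with the synthesis enzymes. It had 163, 179.6 and 149.6 TPM in M2 replicates 1, 2 and 3, and 114, 127 and 123 TPM in M0 replicates 1, 2 and 3. The M2 libraries were all higher and more spread out, and replicate 3 was the lowest of them. The ratio of means was 1.35 (log2 fold change 0.43, SE 0.076, adjusted p = 0.00204 by limma). Its model is NM_018745, chromosome 15, 38487430 to 38519266, minus strand, and 358 bases of Azin1 exons lie over an antisense transcript, Gm49077, in GENCODE. No source used here gives the strand setting, so reads of genes that overlap cannot be told apart.

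Smox, spermine oxidase, turns spermine back into spermidine and releases hydrogen peroxide. It had 58.9, 59.1 and 55.7 TPM in M2 replicates 1, 2 and 3, and 135, 133 and 135 TPM in M0 replicates 1, 2 and 3. No library came near the other group, and the spread within M0 was 0.760% of the mean. Its log2 fold change was -1.20 (SE 0.051, adjusted p = 1.28e-06 by limma), the 80th largest of the 6027 tested genes with a negative one, and M0 cells held 2.32 times the M2 level. It rested on 1472 to 1602 reads per M2 library and 2961 to 3507 per M0 library over the model NM_001177837, chromosome 2, 131491862 to 131525183, plus strand.

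Sat1 encodes the acetyltransferase that marks spermidine and spermine for oxidation or export. It had 39.2, 39.7 and 45.4 TPM in M2 replicates 1, 2 and 3, and 58.0, 56.5 and 54.4 TPM in M0 replicates 1, 2 and 3. The groups did not overlap, and M2 replicate 3 was the M2 library nearest to M0. The log2 fold change was -0.44 (SE 0.070, adjusted p = 0.00120 by limma). The model is NM_009121, chromosome X, 155213126 to 155216449, minus strand.

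Paox, the peroxisomal oxidase of acetylated polyamines, was the lowest of the 10 genes in both groups. It had 5.25, 5.78 and 6.46 TPM in M2 replicates 1, 2 and 3, from 87, 93 and 120 reads, and 7.26, 8.47 and 8.34 TPM in M0 replicates 1, 2 and 3, from 122, 137 and 118 reads. The groups did not overlap but came close to each other. Paox thus had a log2 fold change of -0.40 (SE 0.0996, adjusted p = 0.0108 by limma), and with all genes tested it did not pass (adjusted p = 0.0611). Its exons share 142 bases with Echs1 on the opposite strand, a mitochondrial enzyme gene that stood at 47.6 TPM in M2 cells and 49.2 TPM in M0 cells. The model is NM_001346725, chromosome 7, 140125657 to 140134334, plus strand.

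Oaz1 encodes the main antizyme and was the most abundant of the 10 genes in M0 cells. It had 151, 151 and 178 TPM in M2 replicates 1, 2 and 3, and 191, 186 and 192 TPM in M0 replicates 1, 2 and 3. The groups did not overlap, but M2 replicate 3 stood close to M0 and far from the other M2 libraries. The log2 fold change was -0.25 (SE 0.072, adjusted p = 0.0205 by limma), the smallest of the called genes. It was -0.33 (adjusted p = 5.21e-04) without M2 replicate 3, and -0.21 without M2 replicate 1 or M2 replicate 2 (adjusted p = 0.0661 and 0.0616). The adjusted p was also 0.0610, 0.0504 and 0.0730 without M0 replicates 1, 2 and 3, 0.0892 after median-ratio scaling, and limma-voom on recovered reads gave 0.0665. Over all 16 alternatives it ranged from 5.21e-04 to 0.122, and the log2 fold change stayed negative in each.

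Oaz2, the second antizyme, stood at a far lower level. It had 12.2, 12.8 and 10.6 TPM in M2 replicates 1, 2 and 3, and 16.8, 16.3 and 16.2 TPM in M0 replicates 1, 2 and 3, with no overlap between the groups. The log2 fold change was -0.44 (SE 0.082, adjusted p = 0.00266 by limma). Here M2 replicate 3 was the lowest library, the opposite of its place for Oaz1, and the ratio of Oaz1 to Oaz2 TPM was 16.8 in that library against 12.4 and 11.8 in M2 replicates 1 and 2 and 11.4 to 11.9 in M0. The Oaz1 model is NM_008753, chromosome 10, 80826656 to 80829290, plus strand, and that of Oaz2 is NM_001301307, chromosome 9, 65676548 to 65690300, plus strand.

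**Figure D2:**
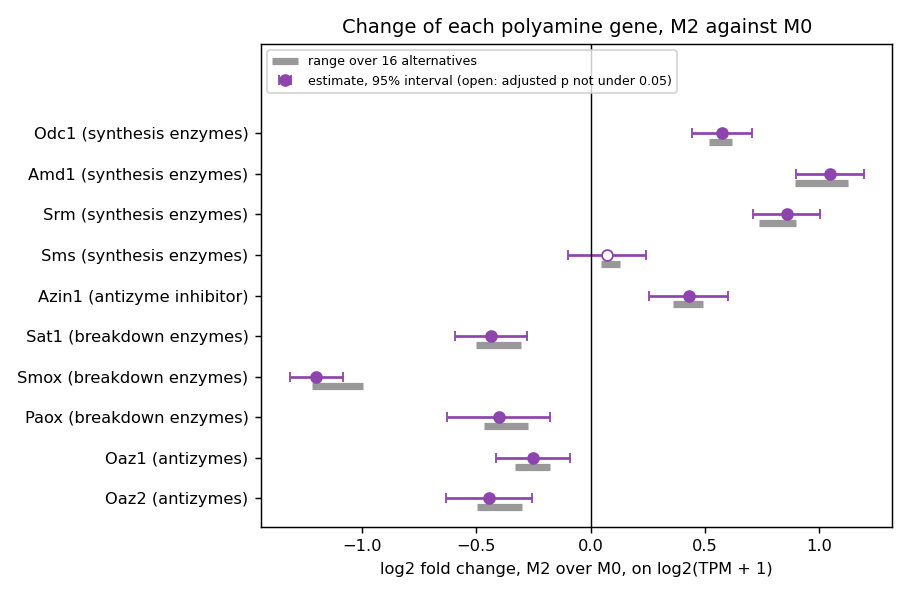
Log2 fold change of each polyamine gene, M2 over M0, on log2(TPM + 1) (x axis), with 95% intervals from limma and, in grey, the range over 16 alternatives. Estimates lie between 0.43 and 1.05 for the 4 genes that rose, between -1.20 and -0.25 for the 5 that fell, and at 0.07 for Sms, drawn open.

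M2 replicate 3 differed from the other M2 libraries in a trend with transcript length, and several polyamine genes deviated there too. Tested genes with models of at least 1000 and under 1500 bases were 0.07 higher in that library (median of 1223 genes, log2 scale, against the mean of M2 replicates 1 and 2), and those of 4000 bases and over were 0.27 lower (median -0.27 of 2924 genes). Oaz1, Paox and Sat1, with models of 1068, 1068 and 1160 bases, were 0.24, 0.20 and 0.20 higher there. Azin1, at 4854 bases, had a difference of -0.19. Oaz2, at 1834 bases, had a difference of -0.22, beyond the median of its length class, -0.02. Sms, at 3708 bases, went against the trend, with a difference of 0.09 where its length class had a median of -0.13. Smaller length trends were also present in the M0 group. Genes of 4000 bases and over had medians of -0.10 in M0 replicate 1 and 0.09 in M0 replicate 2, each against the other M0 libraries. The part of the length trends in the fold changes was not tested. Without M2 replicate 3 the log2 fold changes of Sat1, Paox and Azin1 were -0.50, -0.47 and 0.49, each larger in size than with it. Those of Oaz2 and Smox were smaller in size without it, at -0.37 and -1.17, and both were still called.

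**Figure D3:**
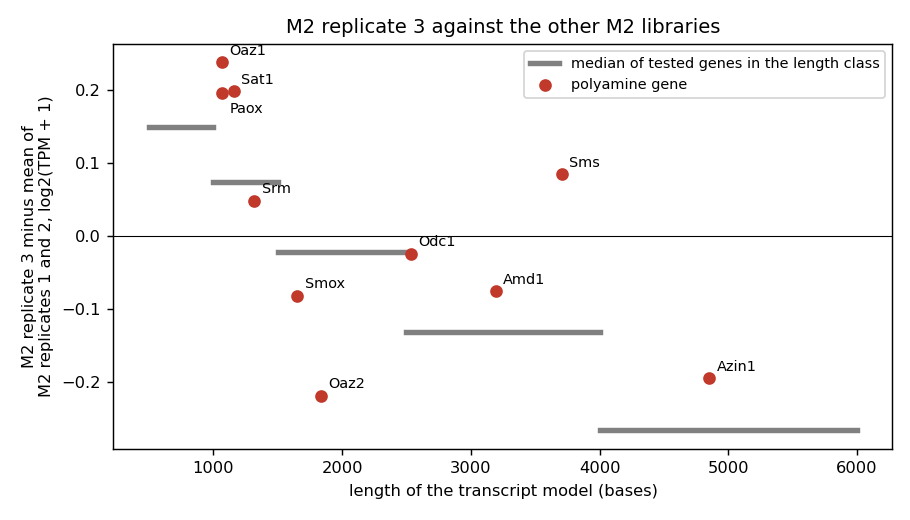
Difference of M2 replicate 3 from the mean of M2 replicates 1 and 2 on log2(TPM + 1) (y axis) against the length of the transcript model in bases (x axis), for the 10 polyamine genes (points) and as medians of all tested genes per length class (bars, the outer 2 classes drawn only in part). Oaz1, Paox and Sat1 lie between 0.20 and 0.24, Azin1 at -0.19 and Oaz2 at -0.22.

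Ranked by mean TPM, which is per length, the genes changed places. In M2 cells the order was Azin1 (164 TPM), Oaz1 (159.9), Srm (124), Odc1 (69.9), Smox (57.9), Sat1 (41.4), Amd1 (31.9), Sms (15.3), Oaz2 (11.9) and Paox (5.83). In M0 cells it was Oaz1 (189.8 TPM), Smox (134), Azin1 (121), Srm (68.1), Sat1 (56.3), Odc1 (46.6), Oaz2 (16.5), Amd1 (14.9), Sms (14.5) and Paox (8.02). Of neighbours in these orders, Azin1 and Oaz1 overlapped between libraries in M2, and Amd1 and Sms in M0. Smox thus ranked below Srm and Odc1 in M2 cells and above them in M0 cells. These ranks, and the sums and ratios below, depend on the model lengths used. The Smox model has 1653 bases here and 2247 bases in the authors' deposited table of the comparison, and ranks with the longer model were not computed.

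Summed TPM of the 4 synthesis enzymes was 244, 237 and 243 in M2 replicates 1, 2 and 3, and 145, 141 and 146 in M0 replicates 1, 2 and 3. For the 3 breakdown enzymes it was 103, 105 and 108 TPM in the M2 libraries and 200.1, 198 and 198 TPM in the M0 libraries. The synthesis sum was thus 2.30 ± 0.0602 times the breakdown sum in M2 cells and 0.725 ± 0.0133 times in M0 cells (SD, n = 3 each), a description of transcript levels and not of enzyme activity. Smox alone was 55.1% of the breakdown sum in M2 cells and 67.6% in M0 cells. The ratio of Odc1 to Smox was 1.19, 1.19 and 1.24 in M2 replicates 1, 2 and 3 and 0.325, 0.366 and 0.348 in M0 replicates 1, 2 and 3. That of Azin1 to Oaz1, inhibitor to antizyme, was 1.08, 1.19 and 0.840 in M2 replicates 1, 2 and 3 and 0.597, 0.684 and 0.640 in M0 replicates 1, 2 and 3, with M2 replicate 3 again nearest to M0.

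**Figure D4:**
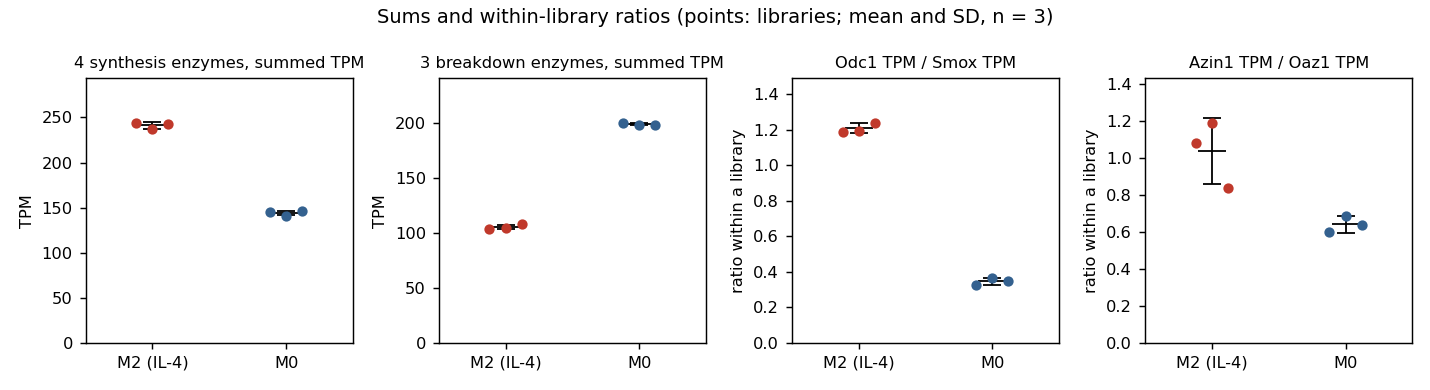
Summed TPM of the 4 synthesis and the 3 breakdown enzymes, and the ratios of Odc1 to Smox and Azin1 to Oaz1 within each library (y axes from 0), for 3 M2 and 3 M0 libraries with mean and SD. In each panel the groups do not overlap, and the Azin1 to Oaz1 ratio varies most, from 0.840 to 1.19 over the M2 libraries.

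The authors' deposited table, read as M2 over M0, has adjusted p-values under 0.05 for 26.4% of 19143 genes with a fold change, and for 8 of the 10 polyamine genes. Those 19143 genes did not go through the filter on low values, which all 10 polyamine genes passed. The share is therefore not matched for expression, and limma called 43.7% of the 11202 genes that passed the filter. In the authors' deposited table Odc1, Amd1, Srm and Azin1 have log2 fold changes of 0.63, 1.14, 0.91 and 0.47. Those of Smox, Sat1, Paox and Oaz2 in the authors' deposited table are -1.20, -0.39, -0.55 and -0.44. Oaz1 and Sms do not pass in the authors' deposited table, with log2 fold changes of -0.20 (adjusted p = 0.0909) and 0.14 (adjusted p = 0.299).

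Promoter windows, from 250 bases before to 50 after the start, were searched on both strands for 3 motifs because Myc, a known activator of Odc1, and STAT6, which IL-4 activates, bind such sequences. RefSeq windows on GRCm38.p6 matched 8 of the 10 genes, 10 windows in all. Srm and Azin1, which both rose, had no window, so the counts do not cover them. The MYC E-box CACGTG was found in 1 of these 10 windows, of Sms, and in 7.15% of all 32851 windows of that length. The STAT6-type spacing TTCNNNNGAA was in 0 of the 8 genes and in 6.95% of all windows, and the shorter TTCNNNGAA in 0 of the 8 and in 8.30%. The GC box GGGCGG, to which SP1 binds, was also counted and was in 8 of the 10 windows (7 of the 8 genes) and in 35.7% of all windows. All windows were counted whether or not their gene passed the filter on low values, so the shares are not matched for expression. Matches describe these letters only, and the known E-boxes of Odc1 lie in its first intron, outside the window. The windows of Odc1, which rose, Smox, which fell, and Sms, the gene with the E-box, are shown 5′ to 3′ on the gene's strand with GGGCGG on either strand in capitals for Odc1 and Smox and CACGTG in capitals for Sms.
Odc1, chr12:17544623-17544922, plus strand: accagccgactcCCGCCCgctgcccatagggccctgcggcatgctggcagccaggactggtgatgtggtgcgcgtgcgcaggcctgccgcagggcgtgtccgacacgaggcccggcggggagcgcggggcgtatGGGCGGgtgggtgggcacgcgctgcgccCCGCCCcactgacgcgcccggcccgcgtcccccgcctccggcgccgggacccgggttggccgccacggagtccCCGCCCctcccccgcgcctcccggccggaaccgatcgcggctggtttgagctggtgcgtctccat
Smox, chr2:131491612-131491911, plus strand: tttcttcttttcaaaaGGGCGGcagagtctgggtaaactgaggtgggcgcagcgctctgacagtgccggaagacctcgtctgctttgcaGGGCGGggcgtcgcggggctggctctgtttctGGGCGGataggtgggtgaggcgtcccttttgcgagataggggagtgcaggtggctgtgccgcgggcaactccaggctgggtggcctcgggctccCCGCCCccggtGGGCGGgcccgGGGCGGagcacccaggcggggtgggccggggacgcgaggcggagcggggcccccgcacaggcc
Sms, chrX:157492238-157492537, minus strand: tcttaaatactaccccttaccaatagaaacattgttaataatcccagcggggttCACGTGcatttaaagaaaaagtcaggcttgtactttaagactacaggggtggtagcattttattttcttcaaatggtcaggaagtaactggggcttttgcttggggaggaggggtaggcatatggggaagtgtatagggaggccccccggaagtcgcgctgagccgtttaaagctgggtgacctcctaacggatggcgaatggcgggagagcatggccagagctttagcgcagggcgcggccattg
Odc1 held 4 GC boxes, Smox 6 and this Sms window 0. A second Sms window held 4 GC boxes and no E-box.

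Around the pathway, 44 further genes were listed and 28 passed the filter, of which 12 rose, 4 fell and 12 did not pass. Without the Amd2 row, which repeats Amd1, 11 of 27 rose and 4 fell, beside 20.1% and 23.7% of all tested genes. Of the supply side, Arg1, the arginase, had 15.3 ± 0.653 TPM in M2 cells and 0.174 ± 0.0719 TPM in M0 cells (SD, n = 3 each), from 1075 and 11 reads over the groups. In all, 3 of 6 tested genes of ornithine supply and use rose and 2 fell (median log2 fold change 0.17), where 20.1% of all tested genes rose and 23.7% fell. The arginine importer Slc7a2 had 65.0 TPM in M2 cells and 5.02 TPM in M0 cells. Ass1, which joins citrulline and aspartate to argininosuccinate on the way back to arginine, fell to 15.9 ± 0.899 TPM in M2 cells, against 23.7 ± 0.943 TPM in M0 cells (adjusted p = 3.76e-04 by limma).

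S-adenosylmethionine is the source of the aminopropyl groups. Of 9 tested genes of its supply and of methylthioadenosine salvage, 4 rose and 0 fell by limma (median log2 fold change 0.21), and 0 fell also at an unadjusted p under 0.05, by limma-voom or in the authors' deposited table. Over all tested genes 20.1% rose and 23.7% fell by limma, and 2684 of 11202 fell by limma-voom. The shares of all genes that fell at an unadjusted p or in the authors' deposited table are not given here. Mat2a, the catalytic subunit of methionine adenosyltransferase, had 163 ± 13.1 TPM in M2 cells and 93.5 ± 4.28 TPM in M0 cells (SD, n = 3 each), a log2 fold change of 0.79 (SE 0.070, adjusted p = 5.12e-05 by limma). Its regulatory partner Mat2b rose by a ratio of 1.31. Ahcy, which clears S-adenosylhomocysteine, rose by a ratio of 1.23 (adjusted p = 0.0110 by limma, and 0.0556 without M0 replicate 3). Mtap, which clears the methylthioadenosine that Srm and Sms release, had 47.8 TPM in M2 cells and 47.4 TPM in M0 cells and did not pass.

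The 10 genes have further relatives. Azin2, a second antizyme inhibitor, rose to 19.9 ± 0.630 TPM in M2 cells, against 9.46 ± 0.518 TPM in M0 cells (SD, n = 3 each; log2 fold change 1.00, adjusted p = 1.99e-05 by limma). Sat2, a relative of Sat1, had 7.19 TPM in M2 cells and 8.59 TPM in M0 cells. It narrowly missed the threshold (log2 fold change -0.23, adjusted p = 0.0504 by limma). Under 4 of 16 alternatives it passed, among them the fit without M2 replicate 3 (adjusted p = 0.0218 by limma). The adjusted p was 0.175 by limma-voom and 0.335 in the authors' deposited table. Of 4 tested relatives 2 rose and 0 fell by limma, where 20.1% of all tested genes rose and 23.7% fell. At an unadjusted p under 0.05, 1 of the relatives fell, and 0 fell by limma-voom. By limma-voom 2684 of all 11202 tested genes fell, and their share at an unadjusted p is not given here. Besides Azin2, the row that rose is Amd2, which repeats Amd1 and also enters the median log2 fold change of 0.46.

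Spermidine is also the substrate for hypusine, a modified lysine of the translation factor eIF5A. Of 3 tested genes of that step 0 passed limma in either direction, where 43.7% of all tested genes did (median log2 fold change 0.09). The count was also 0 at an unadjusted p under 0.05, by limma-voom and in the authors' deposited table. Of all genes, limma-voom called 5369 of 11202, and 26.4% of 19143 passed in the authors' deposited table. The share of all tested genes at an unadjusted p under 0.05 is not given here. Eif5a itself had 1257 ± 26.3 TPM in M2 cells and 1178 ± 6.88 TPM in M0 cells (SD, n = 3 each), with adjusted p = 0.210 by limma. Dohh had a log2 fold change of 0.18 (adjusted p = 0.194, but 0.0455 without M0 replicate 3 and 0.0324 with a replicate block) and Dhps of -0.0025 (adjusted p = 0.980), both enzymes of the modification. Among transport genes 1 of 4 tested rose, near the 20.1% of all tested genes, and 2 fell, against 23.7% (median log2 fold change -0.17). Slc3a2, a shared chain of amino acid exchangers also linked to polyamine export, rose by a ratio of 1.33, and Atp13a2, a lysosomal polyamine exporter, fell to 49.9 TPM in M2 cells, against 65.7 TPM in M0 cells (adjusted p = 0.00613 by limma, and 0.0778 without the filter). Gpc1, a heparan sulfate proteoglycan, had 8.85 TPM in M2 cells and 11.5 TPM in M0 cells and also fell.

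Myc, whose product activates Odc1 in many cell types, had 29.8 ± 1.21 TPM in M2 cells and 6.43 ± 0.503 TPM in M0 cells (SD, n = 3 each), and its partner Max had 61.2 TPM in M2 cells and 49.5 TPM in M0 cells. Both of the 2 tested genes of that list rose (median log2 fold change 1.18), where 20.1% of all tested genes rose and 23.7% fell.

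**Figure D5:**
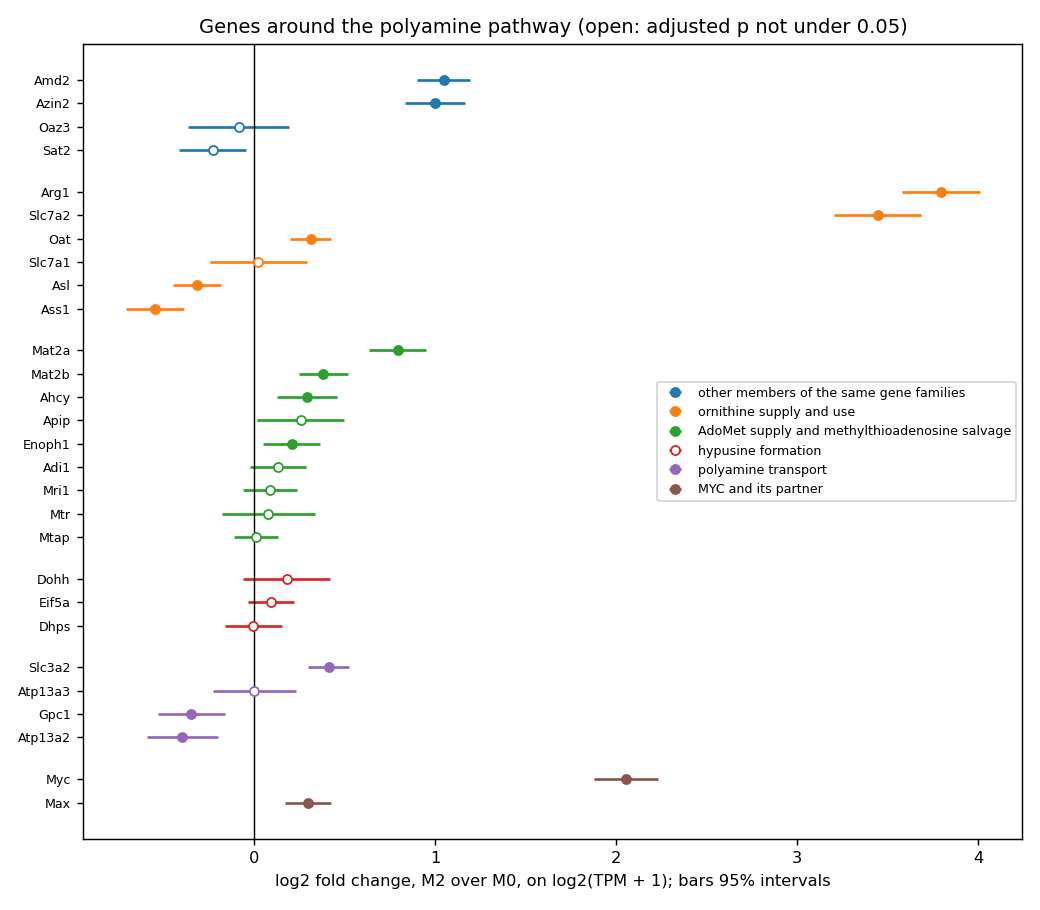
Log2 fold change, M2 over M0, on log2(TPM + 1) (x axis), with 95% intervals from limma, for the 28 tested genes around the polyamine pathway, coloured by list, with open points where the adjusted p was not under 0.05. Arg1, Slc7a2 and Myc lie farthest to the right, and the 3 hypusine genes lie near 0.

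Across the 6 libraries, Ripk2 (0.9995) and Snx8 (0.9994) were among the tested genes with profiles most like that of Odc1, by Pearson correlation of log2(TPM + 1). Those most like Smox were Pmaip1 (0.9998), Cdc42se1 (0.9997) and Fam49a (0.9996). With 3 libraries in each of 2 groups these values mostly restate the group difference: 927 genes correlated above 0.95 with Odc1 and 1151 with Smox.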

How the data were processed

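Libraries were made from the poly(A) fraction of 200 ng of total RNA, per the labels' protocols. STAR 2.7.5a, HOMER 4.11.1, bcl2fastq and DESeq2 are named in the submitters' processing notes, with the build mm10 and no roles. Which annotation and strand setting were used, and how reads with several matches were handled, is not stated. Per the file headers, the authors deposited TPM for 25124 genes in each library. Their second table holds per-library values, read here as log2 from their range, and the authors' log2 fold change and p-values.

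Groups came from sample titles. Genes with at least 1 TPM in at least 3 libraries (11202) were fitted by group with limma 3.58.1 (R 4.3.3) on log2(TPM + 1), with a variance trend and Benjamini-Hochberg adjustment over all of them. The fit was also run on simulated data, which lacked the length trend of M2 replicate 3, so that run does not bear on the calls. Reads per gene were recovered as TPM times model length over the smallest step of each library. Where the decimals allowed a check, 100.0% of values fell within 0.1 read of a whole number. Ranges of 16 alternatives, scalings and left-out replicates among them, are given below. Python 3.11.15, with pandas 2.3.3, biopython 1.88 and matplotlib 3.10.9, prepared tables, sequences and plots.

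Text names all 10 polyamine genes, up to 3 genes of each surrounding list with the lowest adjusted p, and Arg1, Myc and Amd2. Of the 3 genes most like Odc1 and the 3 most like Smox in profile, which the text also names, 1 is not reported here. Mtap and Echs1 were named after their values were seen. Members, lists and motifs were chosen with earlier results of these data known, so no test was made over a list. Intervals cover only the spread between these libraries.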

Additional observations from a re-analysis of the deposited data

How the results depend on the processing

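Over 16 alternatives, 150 of 160 values of the polyamine genes kept both direction and side of the threshold. In the other 10 the direction held and the call ended, 9 times for Oaz1 and 1 time for Paox. Paox kept its call only just without M0 replicate 2 or M0 replicate 3 (adjusted p = 0.0499 and 0.0496 by limma). The number that rose was 4 under each alternative. The number that fell was 5, or 4 where Oaz1 alone was lost, and 3 without the filter on low values, where 25124 genes were tested and both Oaz1 (adjusted p = 0.122) and Paox were lost. With each library left out in turn it was 4 or 5. On the authors' log2-scale values Oaz1 had an adjusted p of 0.0771. Genes called in all numbered 4899, and between 3323 (no filter) and 5694 (without M2 replicate 3) over the alternatives. The surrounding lists held 12 genes that rose and 4 that fell, and 11 to 13 and 3 to 5 over the alternatives. The median of all tested genes moved by at most 0.034 on the log2 scale. Of genes around the pathway, Dhps, which passed under no alternative and was at -0.0025 as reported, had a log2 fold change of 0.0279 with median-ratio scaling, 0.0279 on the authors' log2-scale values and 0.0274 with limma-voom, and between -0.0544 and 0.0365 with each library left out in turn. The cause was not tested.

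No label says whether same-numbered libraries share a culture or day. Their deviations from the group means correlated at -0.03, 0.21 and 0.03 for replicates 1, 2 and 3. Between libraries of different numbers the correlations lay from -0.20 to 0.17, and not every library correlated best with its own number. With 3 libraries per group these values cannot decide whether the libraries were paired. With the replicate number as a block 4870 genes were called, with 4 polyamine genes that rose and 5 that fell. Depth limits Paox most, at 87 to 137 reads per library.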

Other observations

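The deposited tables measure 5 of the 10 polyamine genes on different transcript models. Smox is on a model of 1653 bases in the TPM table and of 2247 bases in the authors' deposited table of the comparison, and Paox on 1068 and 1724 bases. The log2 fold change of Paox was -0.40 in the fit on TPM and -0.55 in the authors' deposited table. These values also differ in scale and method. With a pseudocount of 0.1 the fit on TPM gave -0.455, and limma on the authors' log2-scale values gave -0.27. The part of the transcript model in these differences was not tested.

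The table also lists Oaz1-ps, a processed pseudogene that GENCODE places on chromosome 17, at the Oaz1 locus on chromosome 10. It held 2328, 2238 and 3018 reads in M2 replicates 1, 2 and 3 and 2990, 2790 and 2521 in M0 replicates 1, 2 and 3. The Oaz1 row held 2500, 2424 and 3309 reads in the M2 libraries and 3212, 3011 and 2722 in the M0 libraries. The Oaz1 and Oaz1-ps transcripts of GENCODE were identical at 680 of 681 aligned bases, and reads from the pseudogene could not be told apart from those of Oaz1 here.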
